A study of Mus musculus with 12 samples.

Results

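The regions described here are the strongest open chromatin regions that the deposited accessibility table lists without a gene. They were chosen by their level: no gene listed, and a mean normalized read count of 1000 or more over all 12 libraries. Of 81995 regions in the table, 56950 carry no gene, and 3163 of these (5.55%) reach that mean, which is 3.86% of all regions. The level is therefore what selected them and is given only as a description. The rule used no difference between groups.

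The assay was ATAC-seq on NIH/3T3, a mouse embryo fibroblast line that grows without limit; Tn5 transposase inserts adapters where DNA is open. The groups are 3 mutants of Actg1, the gene for cytoplasmic gamma-actin, and wild type, with 3 libraries each. PTC1 has a T inserted in the coding sequence, by itself on one listed allele and with an A-to-G change beside it on the other, and exon 3 then holds an early stop. PTC2 has 4036 nt inserted in the transcript and its early stop lies in exon 5. In LD the whole locus is deleted, and WT has the gene intact. The series asks what mRNA degradation adds to transcriptional adaptation, so the stop lines, which can make a decaying mRNA, are also set against LD. The series text calls the libraries biological replicates, and the labels name no separate clones of an allele. The p-values thus measure the spread between these libraries of what is taken as 1 line per allele, and a difference between lines cannot be told apart from one between clones.

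Open regions away from a gene start are often enhancers, stretches where transcription factors bind and act on promoters over a distance. Others are insulator sites bound by CTCF, or starts of transcripts that an annotation leaves out. In fibroblasts, AP-1, TEAD, RUNX and SRF are well-known factors at distal elements, and actin feeds back on SRF because monomeric actin holds its coactivator MRTF in the cytoplasm. An open region does not show which gene it acts on, so the genes below are named for position only.

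The normalized counts of a library summed to between 31287351 and 34796876. The selected regions held 15 to 15.22% of that sum in PTC1, 15.51 to 15.52% in PTC2, 15.05 to 15.16% in LD and 15.82 to 16.21% in WT. Fibroblast identity was read at start site regions: of 12 fibroblast markers 10 had one, and 6 of these (Col1a1, Fn1, Vim, Pdgfrb, S100a4 and Twist1) averaged 1000 or more over the 12 libraries. No marker of epithelium, endothelium, blood, neural cells or muscle did so over the 12, but few of these had a start region. It was 2 of 6 for epithelium, 2 of 4 for endothelium, 2 of 4 for blood, 3 of 4 for neural cells and 1 of 4 for muscle. The summed start regions of the neural markers reached 1495 to 1670 in PTC1, 609 to 645 in PTC2, 786 to 847 in LD and 832 to 899 in WT.

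Although the table lists no gene for them, 292 of the 3095 selected regions on chromosomes covered by the RefSeq promoter table (9.43%) held a RefSeq start site, 236 of them of a coding gene and 56 of long non-coding RNAs only. Among the weaker regions with no listed gene the share was 1.08%. The 300 bases around the start (250 before it and 50 after it) are printed for 4 of these regions. Saysd1, Robo1 and Prr5 are shown because they are the coding starts with the largest changes in the comparisons made below. Ptprs is shown because its region is among the strongest and changed little. Sequences are from RefSeq, build GRCm38.p6, 5′ to 3′ on the strand of the gene, and capitals mark the motif letters that were found.
Saysd1 (chr14:20083123-20083422, minus strand): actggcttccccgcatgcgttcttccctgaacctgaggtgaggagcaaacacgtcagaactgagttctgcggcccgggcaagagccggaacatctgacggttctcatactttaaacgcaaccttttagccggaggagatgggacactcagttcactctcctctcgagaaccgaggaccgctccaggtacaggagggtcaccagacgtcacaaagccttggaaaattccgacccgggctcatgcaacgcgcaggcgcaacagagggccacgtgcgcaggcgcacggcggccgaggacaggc
Robo1 (chr16:72662899-72663198, plus strand): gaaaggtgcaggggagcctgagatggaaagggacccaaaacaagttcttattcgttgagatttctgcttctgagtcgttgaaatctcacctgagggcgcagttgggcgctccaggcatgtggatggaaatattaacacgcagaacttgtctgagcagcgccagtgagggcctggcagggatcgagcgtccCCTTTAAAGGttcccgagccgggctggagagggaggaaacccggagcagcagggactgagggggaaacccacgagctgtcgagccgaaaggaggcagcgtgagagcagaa
Prr5 (chr15:84680748-84681047, plus strand): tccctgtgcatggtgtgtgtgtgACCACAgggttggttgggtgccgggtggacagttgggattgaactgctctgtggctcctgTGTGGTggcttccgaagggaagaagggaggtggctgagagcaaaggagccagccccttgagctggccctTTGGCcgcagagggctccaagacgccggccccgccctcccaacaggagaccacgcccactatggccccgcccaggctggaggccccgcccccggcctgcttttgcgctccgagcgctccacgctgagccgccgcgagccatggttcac
Ptprs (chr17:56462172-56462471, minus strand): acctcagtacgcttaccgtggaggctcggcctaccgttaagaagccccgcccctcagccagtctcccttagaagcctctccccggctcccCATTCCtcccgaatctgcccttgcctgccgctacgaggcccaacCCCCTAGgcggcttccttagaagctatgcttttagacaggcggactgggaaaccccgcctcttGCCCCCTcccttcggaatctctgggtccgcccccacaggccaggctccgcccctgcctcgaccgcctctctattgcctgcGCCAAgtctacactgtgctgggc
The Saysd1 promoter held none of the 8 motifs searched, and the Robo1 promoter held a single CArG box, the SRF motif. In the Prr5 promoter RUNX occurred at 2 places and the NFI motif (a single arm of its palindrome) at 1, and in the Ptprs promoter the capitals are 1 TEAD motif, 1 NFI motif and 2 CTCF core motifs.

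Over the 370 RefSeq promoters inside selected regions, the motifs searched on both strands were AP-1 (TGANTCA), TEAD (GGAATG), E-box (CAGCTG), RUNX (TGTGGT), ETS (GGAAGT), NFI (TTGGC), the CTCF core (CCNCTAG or AGGGGGC) and the SRF CArG box by its name. The CTCF core occurred in 33% of these promoters and in 20.7% of all 32851 RefSeq promoters of the same length. AP-1 occurred in 11.1% against 7.81%, RUNX in 13.5% against 16.8% and the CArG box in 1.89% against 1.63%. Shares for TEAD (14.9% against 14.7%), the E-box (17.6% against 16.3%), ETS (22.7% against 23.8%) and NFI (48.1% against 46.7%) lay close together. The promoters in selected regions had a median GC content of 63.2%, against 52.7% in all promoters, and a median of 21 CpGs against 7. The part of base composition in these shares was not tested, and the matches describe letters in the window and do not show binding.

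Mean levels of the 3163 regions ran from 1000 to 8524 with a median of 1423, and the weaker regions with no listed gene had a median of 85.5. Widths ran from 408 to 3155 bp with a median of 1095 bp, against 441 bp in the weaker regions. Per kilobase of width, the selected regions had a median of 1354, close to the 1337 of the 7390 equally strong regions with a listed gene and above the 194.6 of the weaker ones. Their centres lay inside a coding gene in 1729 cases (54.7%) and outside any RefSeq gene in 1108 (35%). The nearest coding start was a median of 34.5 kb away, against 43.8 kb for weaker regions, and 661 regions (20.9%) were more than 100 kb from one. Chromosome 17 had the highest share of its gene-free regions among the selected ones (8.32%) and chromosome X the lowest (2.22%).

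**Figure D1:**
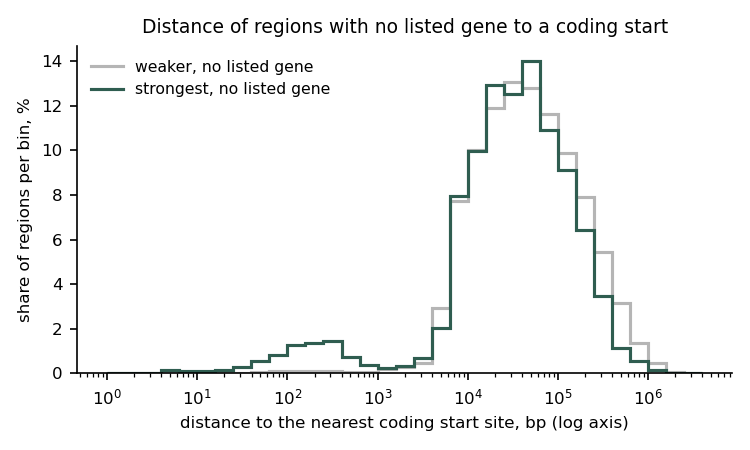
Distance from the region centre to the nearest coding start site in bp (log axis) against the share of regions per bin in percent, for the 3163 strongest and 53787 weaker regions with no listed gene. The medians are 34.5 and 43.8 kb, and 92.5% of the strongest and 99.3% of the weaker regions lie more than 1000 bp from a start.

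The strongest 4 regions all held a start site. The region at chr9:124422789-124425796, with the starts of 4930526I15Rik and LOC108167694, had the highest mean at 8524. Ptprs, a receptor tyrosine phosphatase (chr17:56461816-56463494), followed with 6931, then Tef, a PAR bZIP transcription factor (chr15:81810154-81811996), with 6089 and Kat6b, a histone acetyltransferase (chr14:21499596-21501549), with 5820. At Ptprs the libraries gave 7048, 6881 and 6995 for PTC1, 7421, 7040 and 7057 for PTC2, 6696, 6385 and 6359 for LD, and 7181, 7203 and 6910 for WT. Every LD library there was below the other 9, by a log2 change of -0.13 against WT (limma adjusted p = 0.0052). The strongest regions without a RefSeq start lay inside Dlgap1 (chr17:70737343-70739069, mean 5504, 109 kb from the Tgif1 start) and over Has1 and Spaca6 (chr17:17837377-17838751, mean 5468).

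Group means are a description here, since a mean of 1000 over the 12 libraries chose the regions. That cut does not define whether a region is open. In 2086 of them (66%) the mean was 1000 or more in each of the 4 groups. A mean below 1000 was seen in 457 regions in PTC1, 314 in PTC2, 503 in LD and 200 in WT. A group mean below 200 was rare, with 1 region in PTC1, 1 in PTC2, 2 in LD and 0 in WT. In 36 regions the mean reached 1000 in a single group, which was PTC1 for 11, PTC2 for 13, LD for 4 and WT for 8. Some rises named below are in regions that reached 1000 through the lines where they are high, such as those inside Megf6, Kcnj15 and Sh3kbp1. The size of such rises is not independent of the selection.

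Replicates were tight at these levels. The median coefficient of variation between the 3 libraries of a group was 4.12% in PTC1, 4.33% in PTC2, 4.22% in LD and 4.3% in WT. The median standard error of a log2 change was 0.063, so that called changes began at log2 sizes of 0.10 to 0.11. Many calls below are therefore of small changes. By limma's F test 3009 regions (95.1%) differed somewhere among the 4 groups, against 88.7% of all 81985 regions tested.

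In PTC1 against WT, 773 of the selected regions (24.4%) were higher and 1438 (45.5%) were lower. Over all regions tested the shares were 30.6% higher and 31.2% lower (limma, Benjamini-Hochberg adjusted p under 0.05, here and below). Among equally strong regions with a listed gene 30.6% were higher and 33.5% lower, and among weaker regions with no listed gene 30.6% and 30.9%. The median log2 change of the selected regions was -0.10. Changes of a log2 of 1 or more, which is 2-fold, were few: 18 regions (0.569%) were higher and 88 (2.78%) lower, against 12.8% and 11.7% of all regions. Weaker regions reached that size in 15.5% of cases upward. Equally strong listed regions did so less often than the selected ones, in 0.23% upward and 0.582% downward. The median absolute log2 change was 0.251 in the selected regions, 0.585 in the weaker ones and 0.197 in equally strong listed regions.

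The largest fall in PTC1 was inside Clnk, which encodes an adaptor of immune receptor signalling (chr5:38857542-38858827, 18.5 kb from its start). Its normalized read counts were 123, 96 and 103 for PTC1, 2203, 1951 and 1987 for PTC2, 1835, 1516 and 1633 for LD, and 1884, 1794 and 1807 for WT. The PTC1 libraries lay far below all 9 others, LD overlapped WT, and PTC2 lay above both. The mean was 107.3 ± 14 in PTC1 and 1828 ± 48.6 in WT (SD, n = 3 each), a 17-fold fall (log2 change -4.09, 95% interval -4.25 to -3.92, limma adjusted p = 1.82e-25). Neighbouring regions within 1 Mb changed by a median of -0.81 on the log2 scale.

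Inside Adgra2, the gene of an adhesion receptor (chr8:27106595-27108346, 21.2 kb from the start of the RNA polymerase III factor gene Brf2), PTC1 had 255, 232 and 213, PTC2 had 1123, 1153 and 1012, LD had 2492, 2546 and 2385, and WT had 2772, 2761 and 2538. Both stop lines were below LD and WT without overlap, and LD overlapped WT. The log2 change was -3.52 in PTC1 (limma adjusted p = 1.73e-25) and -1.30 in PTC2 (1.74e-15), and in LD it was -0.12 (0.165). The Brf2 start region itself averaged 713.7 in PTC1 and 1178 in WT, a log2 change of -0.72. The same order of lines held at chr8:40089280-40090483, 218 kb from the start of Micu3, a regulator of mitochondrial calcium uptake, with means of 223.3 in PTC1, 804.3 in PTC2, 1814 in LD and 1981 in WT. Neighbouring medians in PTC1 were -0.66 around the region in Adgra2 and -0.98 around the one near Micu3.

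Near Muc13, a transmembrane mucin gene (chr16:33781771-33782988, 11.7 kb from its start), counts were 352, 344 and 387 for PTC1, 1911, 1767 and 1705 for PTC2, 2860, 2728 and 2990 for LD, and 3128, 3174 and 3214 for WT. All 4 lines were separated from each other. The changes against WT were -3.13 in PTC1, -0.82 in PTC2 and -0.15 in LD (limma adjusted p = 1.22e-25, 1.66e-12 and 0.0432), beside neighbouring medians of -0.37, 0.37 and 0.24. Inside Tns4, which encodes a tensin of focal adhesions (chr11:99076550-99077331), means were 244.7 ± 4.93 in PTC1, 873.3 ± 27.5 in PTC2, 1559 ± 42.6 in LD and 1345 ± 49.2 in WT. There PTC1 fell 5.48-fold against WT (limma adjusted p = 1.92e-22).

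The largest rise in both stop lines was the same region, inside Megf6 (chr4:154247636-154249157, 51.5 kb from the start of Arhgef16). It had 1477, 1459 and 1652 for PTC1, 2434, 2239 and 2380 for PTC2, 735, 805 and 717 for LD, and 438, 412 and 410 for WT. No 2 lines overlapped, and WT was lowest. With means of 752.3 in LD and 420 in WT, the region was selected through the stop lines, where it is called higher. The region rose 3.63-fold in PTC1, 5.59-fold in PTC2 and 1.79-fold in LD (limma adjusted p = 1.86e-19, 5.53e-22 and 3.3e-11). Neighbouring regions changed by log2 medians of 0.86 (PTC1), 0.42 (PTC2) and 0.17 (LD). The Arhgef16 start region was lower in level, with means of 168.3 in PTC1, 134 in PTC2, 152.7 in LD and 84 in WT, and was higher than WT in each mutant (log2 changes of 1.01, 0.69 and 0.87).

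**Figure D2:**
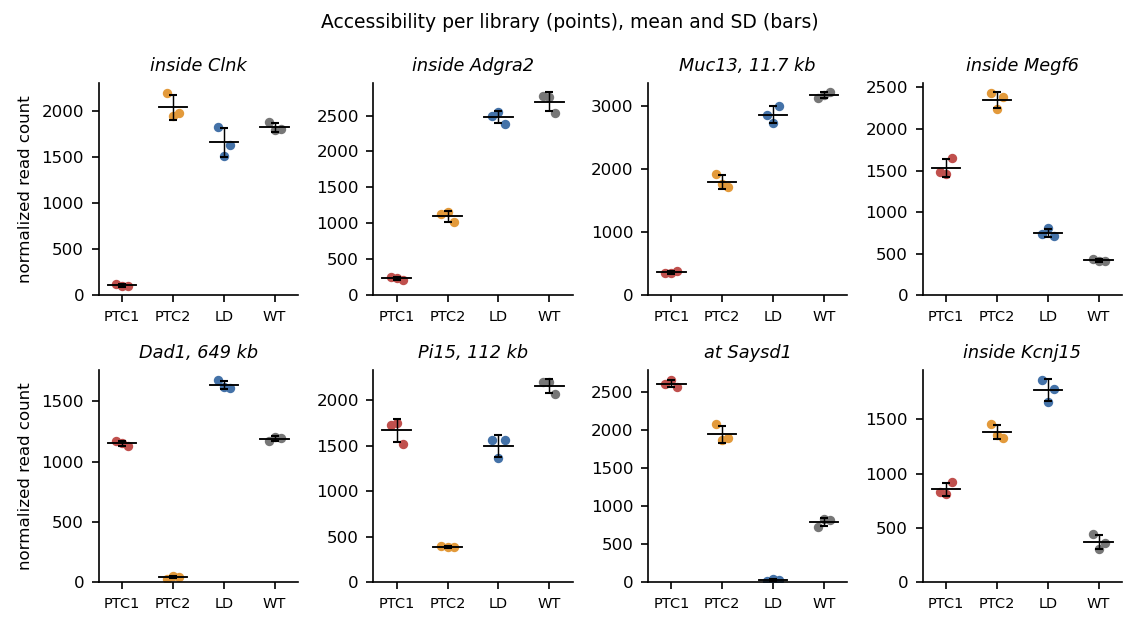
Normalized read count on the y axis for PTC1, PTC2, LD and WT in 8 of the regions with the largest changes, named by the gene they lie in or by the nearest coding start and its distance. Each point is a library and the bars give the mean and SD (n = 3). The regions inside Clnk and near Dad1 are each near the floor in a single line, with means of 107.3 in PTC1 and 44.67 in PTC2, and the region at Saysd1 with 28.67 in LD.

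Against WT, PTC2 had 958 selected regions (30.3%) higher and 1078 (34.1%) lower, with 28.4% and 29.8% over all regions. Equally strong listed regions went mostly upward in PTC2, with 39% higher and 14.6% lower. This split rests on the scaling: with the libraries brought to the same median, 1265 selected regions were higher and 760 lower, and the median of all regions then moved to 0.115 on the log2 scale. With each chromosome centred on its own median, 677 were higher and 1169 lower. Changes of at least 2-fold numbered 23 (0.727%) upward and 55 (1.74%) downward, against 9.2% and 13.4% of all regions. Among equally strong listed regions the shares were 0.122% and 0.244%.

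The largest fall in PTC2 lay 649 kb from the nearest coding start, that of Dad1, a subunit of the oligosaccharyltransferase (chr14:53604209-53605900). Counts were 1176, 1152 and 1131 for PTC1, 31, 54 and 49 for PTC2, 1676, 1621 and 1615 for LD, and 1173, 1208 and 1194 for WT. The fall in PTC2 was 26.8-fold (log2 change -4.74, 95% interval -4.98 to -4.51, limma adjusted p = 4.37e-23), while regions within 1 Mb changed by a median of -0.03. PTC1 overlapped WT there, and LD was 1.37-fold higher (limma adjusted p = 0.00175).

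At chr1:17488823-17490047, 112 kb from the start of the peptidase inhibitor gene Pi15, PTC2 averaged 390.3 ± 8.5 and WT 2161 ± 78.2 (SD, n = 3 each), a 5.52-fold fall (limma adjusted p = 5.48e-22), where neighbouring regions changed by a median of -0.82 on the log2 scale. The Pi15 start region fell as well in PTC2, to a mean of 100.7, against 424.7 in WT (log2 change -2.09). Similar falls of 3.61-fold inside Gas7 (chr11:67515257-67516155) and 3.6-fold inside Abcb11, the bile salt export pump gene (chr2:69322576-69323432), came with smaller falls in PTC1 and LD, and their neighbouring medians in PTC2 were -0.71 and -0.10.

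Next to the region in Megf6, PTC2 rose most inside Kcnj15, which encodes an inward rectifier potassium channel (chr16:95284464-95286070). It had 828, 815 and 926 for PTC1, 1454, 1359 and 1331 for PTC2, 1867, 1659 and 1783 for LD, and 442, 312 and 367 for WT. All 9 mutant libraries were above WT, and the 3 mutants did not overlap each other. The rise was 2.31-fold in PTC1, 3.72-fold in PTC2 and 4.77-fold in LD (limma adjusted p = 9.52e-13, 4.8e-17 and 1.62e-18), the largest rise among selected regions in LD, and neighbouring medians were -0.34, 0.15 and 0.13. At chr12:107807315-107808558, 195 kb from Bcl11b, a zinc finger factor gene, PTC2 averaged 2450 ± 37.2 and WT 788 ± 79.1. In LD this region averaged 714.7 ± 74.2, within the spread of WT (limma adjusted p = 0.12).

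In LD against WT, 326 selected regions (10.3%) were higher and 1617 (51.1%) lower, where all regions had 22.6% and 24.7%. Equally strong listed regions gave 8.42% higher and 40% lower, and weaker gene-free regions 24.7% higher and 22.4% lower. The median log2 change was -0.15. Loess normalization, which removes trends with level, left 793 regions higher and 1012 lower, so the split depends on the scaling. At 2-fold or more, 6 regions (0.19%) were higher and 37 (1.17%) lower, against 6.9% and 6.45% of all regions. Among equally strong listed regions the shares were 0.0541% and 0.65%. The 2-fold falls of selected regions numbered 21 after loess, 21 with chromosome centring and 13 with local centring. Their rises numbered 10 with chromosome and 2 with local centring.

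The largest fall in LD held the start of Saysd1, the gene of an endoplasmic reticulum membrane protein, whose promoter is printed above (region chr14:20082416-20083461). Counts were 2617, 2660 and 2572 for PTC1, 2080, 1874 and 1896 for PTC2, 17, 40 and 29 for LD, and 732, 832 and 821 for WT. LD was far below the other lines, both stop lines were above WT, and no 2 lines overlapped. The change was -4.82 in LD, 1.72 in PTC1 and 1.29 in PTC2 on the log2 scale (limma adjusted p = 9.39e-21, 4.63e-11 and 1.57e-08). Regions within 1 Mb moved by medians of only -0.15, 0.22 and 0.10. A second region near this start, which the table does list with Saysd1, was weaker, with a mean of 98 in LD and 252 in WT, and fell in LD by 1.37 on the log2 scale.

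Inside Sox5, a SOX family gene known for its role in cartilage (chr6:143915776-143916928), counts were 3003, 2924 and 2787 for PTC1, 863, 864 and 866 for PTC2, 129, 118 and 119 for LD, and 1043, 1108 and 987 for WT. The fall in LD was 8.51-fold and the rise in PTC1 2.78-fold (limma adjusted p = 1.01e-23 and 1.06e-16). Here neighbouring regions moved the same way, by medians of -2.17 in LD and 0.93 in PTC1. At chr5:43072237-43073486, LD averaged 209.3 ± 31.1 and WT 1541 ± 127, a 7.37-fold fall, with a median change of -0.90 nearby. At chr6:106876526-106877605, 77 kb from Crbn, LD and PTC2 fell 4.83-fold and 3.62-fold, beside neighbouring medians of -1.94 and -1.56.

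Rises in LD after Kcnj15 were of about the same size as each other. Inside Mid1, an X-linked ubiquitin ligase gene (chrX:169880910-169882437), the mean was 2111 ± 75.1 in LD and 828.7 ± 60.7 in WT, and inside Sh3kbp1, an endocytic adaptor gene (chrX:159953316-159954596), it was 1756 ± 42.7 in LD and 742.3 ± 61 in WT. Both lay among regions that were higher in LD by medians of 1.18 and 1.07, and after local centring their changes of 0.17 and 0.18 were no longer called. The region inside Sh3kbp1 averaged 797 in PTC1 and 852 in PTC2, so it was selected only through its level in LD. Inside Atxn7l1 on chromosome 12 (chr12:33235188-33236640) the mean was 2392 ± 229 in LD and 1010 ± 51.2 in WT, a 2.36-fold rise (limma adjusted p = 3.83e-15), beside a neighbouring median of 0.57.

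**Figure D3:**
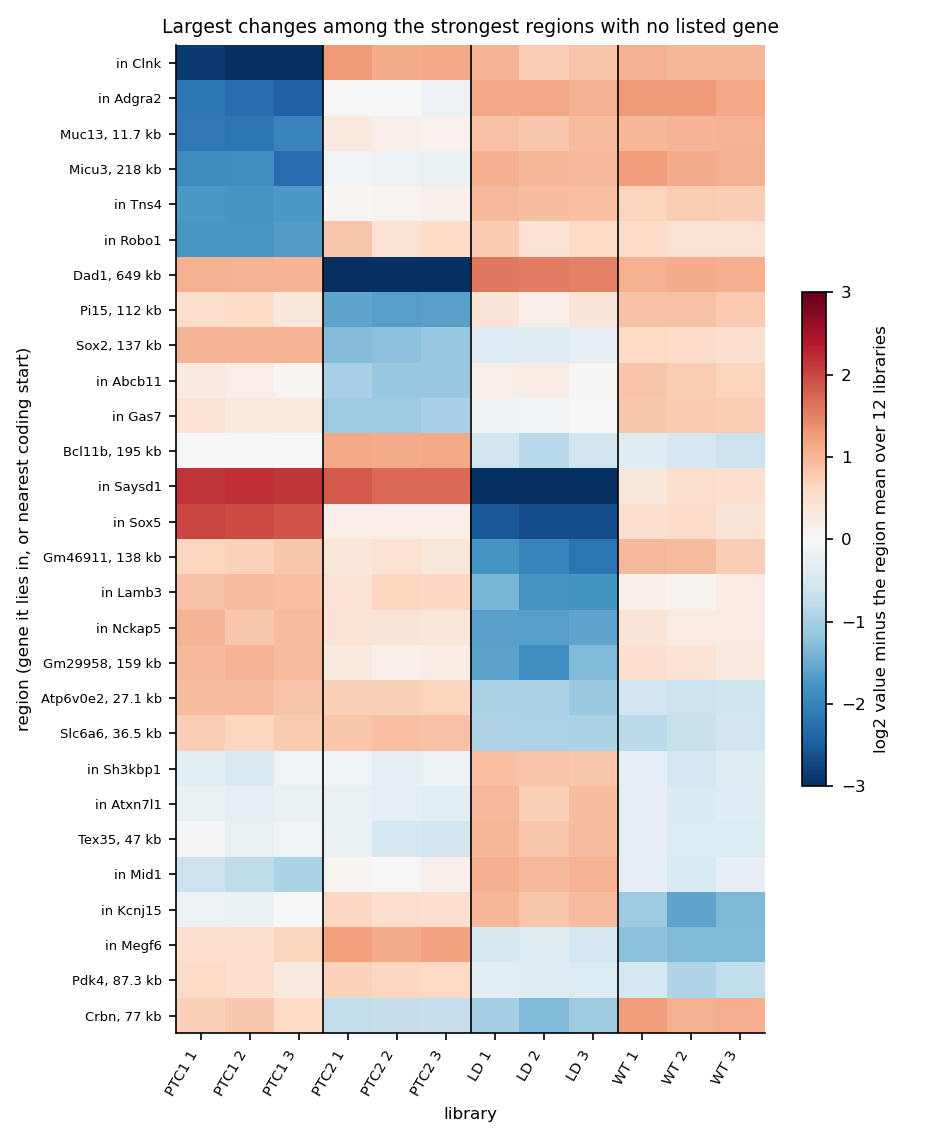
Heat map of the 28 named regions with the largest changes (rows, by the gene they lie in or the nearest coding start) over 12 libraries (columns, PTC1, PTC2, LD, then WT). Colour is the log2 value minus the region's mean over the 12 libraries, cut off at a log2 size of 3 in either direction. The LD libraries at Saysd1, with counts of 17, 40 and 29, lie beyond that cut, so their spread does not show.

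Set against LD, the mean of PTC1 and PTC2 was higher in 1465 selected regions (46.3%) and lower in 874 (27.6%). All regions had 32.1% higher and 32.6% lower, and equally strong listed regions 53.3% and 16.7%. This direction depends on the scaling too. With equal medians 1842 were higher and 522 lower, with the median of all regions at 0.114, and after loess normalization 1054 were higher and 1329 lower. Past 2-fold, 67 regions (2.12%) were higher and 36 (1.14%) lower, against 10.1% and 12.2% of all regions. Among equally strong listed regions the shares were 0.622% and 0.284%. The 67 rises became 103 at equal medians, 43 after loess, 33 with chromosome centring and 37 with local centring. Saysd1 and Sox5 led the rises, 80.4-fold and 12.9-fold above LD.

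Next came the region at chr5:43072237-43073486 (5.85-fold above LD) and a region inside Lamb3, which encodes a laminin chain (chr1:193297946-193298805). Lamb3 had 1656, 1721 and 1663 for PTC1, 1216, 1409 and 1370 for PTC2, 345, 260 and 257 for LD, and 994, 959 and 1062 for WT. LD was lowest and both stop lines were above WT without overlap. The stop lines stood 5.23-fold above LD (limma adjusted p = 2.65e-21). A region inside Nckap5 (chr1:126817289-126818407) was 4.84-fold above LD and WT was 3.75 times LD, with a Nckap5 start region that also fell in LD, by 1.25 on the log2 scale, and a neighbouring median of -0.81 in LD against WT. The falls against LD were led by the regions near Dad1, inside Adgra2, near Micu3, near Muc13 and inside Tns4, each lowest in 1 stop line as described.

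PTC1 against PTC2 gave 838 higher (26.5%) and 1337 lower (42.3%), beside 31.6% and 30.9% of all regions. At equal medians, with the median of all regions at -0.101, the counts were 541 and 1677, and after loess normalization they were 1140 and 1067. Changes of at least 2-fold were found upward in 46 regions (1.45%) and downward in 67 (2.12%), against 16.1% and 11.5% of all regions. Among equally strong listed regions the shares were 0.311% and 0.555%. Clnk (19-fold lower in PTC1) and Dad1 (25.9-fold higher in PTC1) were the extremes.

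The start of Robo1, the receptor of the guidance cue Slit, was also among the falls (region chr16:72662830-72664672, promoter printed above). Counts were 314, 317 and 330 for PTC1, 1875, 1463 and 1594 for PTC2, 1826, 1419 and 1593 for LD, and 1587, 1461 and 1460 for WT. PTC1 stood apart below the other lines, which overlapped each other. PTC1 was 5.09-fold below PTC2 and 4.68-fold below WT (limma adjusted p = 4.07e-20 and 2.09e-19), and the 12 neighbouring regions changed by medians of -1.39 and -1.61. At Prr5, a subunit gene of mTOR complex 2 whose promoter is also printed (region chr15:84680463-84681993), means were 611.3 in PTC1, 1844 in PTC2, 1185 in LD and 1258 in WT. PTC1 was lower by 1.59 than PTC2 on the log2 scale, against a median of -0.10 nearby.

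A region 137 kb from Sox2, a factor of stem and neural cells (chr3:34512344-34513326), had 2333, 2323 and 2384 for PTC1, 464, 489 and 519 for PTC2, 879, 895 and 948 for LD, and 1743, 1689 and 1606 for WT. No 2 lines overlapped. PTC1 was 4.78-fold above PTC2 and 1.4-fold above WT (limma adjusted p = 2.49e-22 and 1.39e-07). The Sox2 start region averaged 1025 in PTC1 and only 27.67 in PTC2, 32.33 in LD and 23 in WT (Sox2 is among the neural markers summed above). Neighbours moved even more than the region, by a median of 3.58 between the stop lines, and after local centring the sign was negative (-1.326).

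**Figure D4:**
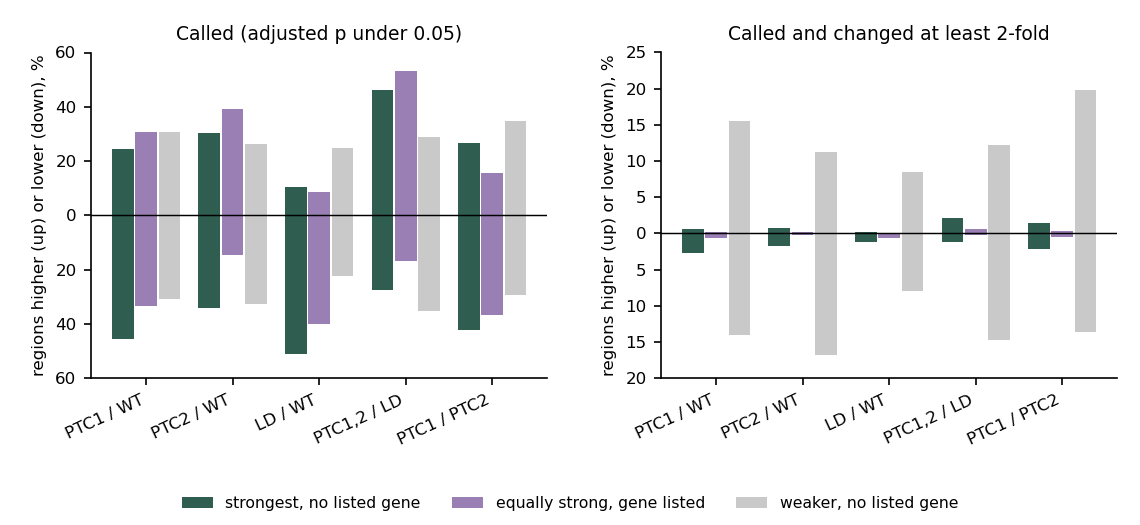
Percent of regions called higher (above 0) and lower (below 0) in each comparison, for the strongest regions with no listed gene, the equally strong regions with a listed gene and the weaker regions with no listed gene. Left, all calls at adjusted p under 0.05. Right, calls of at least 2-fold, where the strongest regions stay between 0.19% and 2.78% and the weaker ones reach 19.8%. Equally strong listed regions stay between 0.0541% and 0.65% there.

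Counting regions in which all 3 libraries of a line lay beyond the other 9 compares the lines without a shared control. PTC1 stood above in 424 regions (13.4%, against 17.3% of all regions) and below in 770 (24.3%, against 15.5%). PTC2 stood above in 541 (17.1%, against 12.6%) and below in 8.88% (against 11.9%). LD was above in 150 (4.74%, against 11.3%) and below in 858 (27.1%, against 10.4%). WT was above in 524 (16.6%, against 8.28%) and below in 80 (2.53%, against 5.24%). Equally strong listed regions had nearly the same LD share below (27.4%) but a WT share above of 6.59%. These counts depend on the scaling. After loess normalization LD stood above in 14.2% and below in 14.9%, and PTC2 above in 9.58% and below in 15.6%, so the LD imbalance was gone and that of PTC2 turned round. At equal medians PTC2 stood above in 29.2% and below in 4.84%, and LD above in 1.77%.

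By position, and without a test, regions at start sites were less often lower and slightly more often higher than those outside genes. Against WT, PTC1 had 27.4% of the 292 regions at a RefSeq start higher and 32.9% lower, PTC2 had 34.6% and 15.1%, and LD had 10.3% and 41.8%. Of the 1082 outside any RefSeq gene and without a start, PTC1 had 24.1% higher and 47.9% lower, PTC2 had 27.9% and 38.4%, and LD had 9.7% and 53.6%. All regions tested had 30.6% and 31.2%, 28.4% and 29.8%, and 22.6% and 24.7%, so the PTC1 share lower at starts was near that of all regions. Median absolute log2 changes at starts were 0.17, 0.14 and 0.15, against 0.27, 0.23 and 0.22 outside genes. No region on chromosome 18 could count as a start, because the RefSeq promoters did not cover it. Of its 68 regions 91.2% were lower in PTC1, 82.4% in PTC2 and 100% in LD. Their part in this contrast was not tested. The 661 regions over 100 kb from a coding start had values close to those of the regions outside genes (47.5%, 38.3% and 55.8% lower). By level, 2-fold changes in PTC1 against WT were found in 4.81% of regions with a mean of 1000 to 1500 and in 0 of the 127 whose mean reached 3000.

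On some chromosomes most selected regions shifted the same way. On others the directions were mixed, as on chromosome 7 with 23 higher and 22 lower in PTC1. On chromosome 18, all 68 selected regions were lower in LD, by a median of 0.71 below WT on the log2 scale, and the other regions of that chromosome had a median of -0.53. In PTC1 62 of the 68 were lower, and in PTC2 56. On chromosome 15, 136 of 198 regions (68.7%) were higher in PTC1 and 158 (79.8%) lower in LD, with medians of 0.27 and -0.34, and the other regions had 0.46 and -0.15. Chromosome 16 (median -0.52, other regions -0.37) and chromosome 12 (-0.38, other regions -0.29) were low in PTC1, and chromosome 6 was low in LD (-0.46, other regions -0.34). Across the selected regions, the change correlated with the median change of unselected regions within 1 Mb (Pearson r was 0.563 for PTC1, 0.404 for PTC2 and 0.574 for LD, over 3163 regions that share the libraries). DNA content was not measured, and its part in these shifts was not tested.

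**Figure D5:**
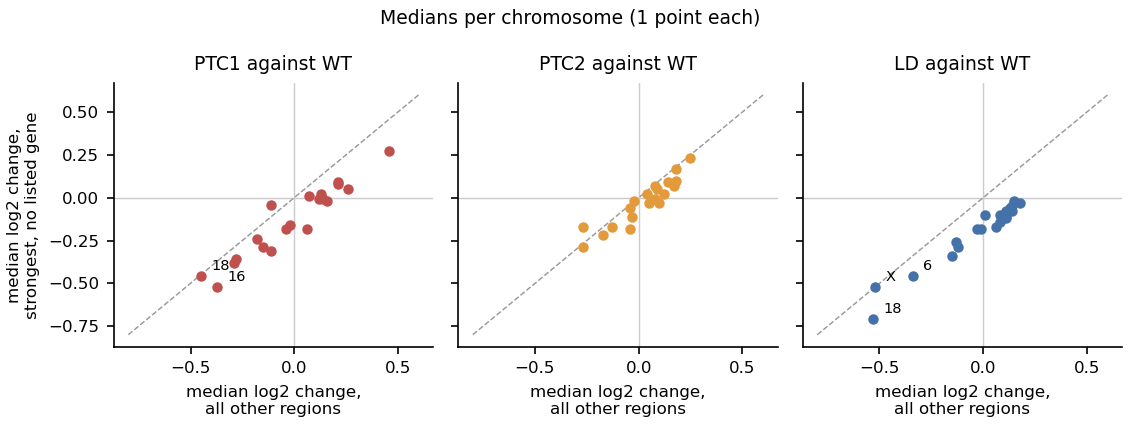
Median log2 change against WT of the selected regions (y axis) and of all other regions (x axis) for each of 20 chromosomes, with PTC1, PTC2 and LD in a panel each. The dashed line marks equal values. Points follow the line and mostly lie below it, as for chromosome 18 in LD with -0.71 and -0.53.

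Around the actin genes, the region nearest to the edited Actg1 gene lay 82.8 kb away inside Bahcc1 (chr11:120261422-120262865), and 7 selected regions lay within 1 Mb. It had 1471, 1579 and 1571 for PTC1, 1520, 1567 and 1523 for PTC2, 1868, 1850 and 1943 for LD, and 1878, 2027 and 1872 for WT. Both stop lines were below LD and WT, which overlapped. The log2 changes were -0.32 in PTC1, -0.32 in PTC2 and -0.03 in LD (limma adjusted p = 1.17e-05, 1.15e-05 and 0.7). Regions within 1 Mb had medians of 0.18 (PTC1), -0.48 (PTC2) and 0.16 (LD), so that in PTC2 the sign turned under local centring (0.154). A region inside Csnk1d (chr11:120984413-120985272) was the one of the 7 with the largest change, 1.07 lower in PTC2 on the log2 scale, with means near WT in PTC1 and LD.

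Near Actb, the gene of cytoplasmic beta-actin, 7 selected regions lay within 1 Mb. The nearest (chr5:142920527-142921406) had 1483, 1458 and 1493 for PTC1, 1548, 1604 and 1671 for PTC2, 1479, 1520 and 1435 for LD, and 1926, 1840 and 1746 for WT. Every mutant library was below every WT library, by log2 changes of -0.31, -0.19 and -0.31 (limma adjusted p = 2.41e-05, 0.00493 and 4.24e-05), and the call in PTC2 was lost at equal medians (-0.10). The next region (chr5:142928858-142929829) was higher in PTC2 by 0.35. Within 1 Mb there were 8 selected regions around Acta1, 1 around Acta2, 5 around Actc1 and 10 around Actg2. Around Actg2, the gene of smooth muscle gamma-actin, the nearest region (chr6:83023887-83025238) was 488 kb away and had log2 changes of 0.34 (PTC1), 0.34 (PTC2) and 0.07 (LD), beside neighbouring medians of 0.52, 0.42 and -0.27. After local centring neither stop line was higher there (-0.182 and -0.084).

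Selected regions within 100 kb of listed genes were counted for 6 lists. Near 14 of 19 AP-1 and early response genes there were 25 such regions, and against WT PTC1 had 12 higher and 7 lower, PTC2 had 10 higher and 9 lower, and LD had 1 higher and 17 lower. For MRTF-SRF cytoskeletal targets, 23 regions near 11 of 21 genes were counted; PTC1 had 11 higher and 5 lower, PTC2 had 13 and 3, LD had 4 and 8. YAP-TEAD targets and partners had 17 regions near 10 of 18 genes, of which PTC1 had 1 higher and 11 lower, PTC2 had 3 and 4, LD had 1 and 2. The 33 regions near matrix, collagen and fibroblast genes gave 9 and 13, 11 and 7, and 5 and 16 in the same order. The 20 near growth factor and matrix receptor genes gave 5 and 11, 4 and 11, and 0 and 16, and the 6 near actin genes 0 and 3, 2 and 4, and 1 and 2. Several of these regions share a gene, such as 5 at Myh9 and 4 at Jun. Among all selected regions, from which these were drawn, PTC1 had 24.4% higher and 45.5% lower. PTC2 had 30.3% and 34.1%, and LD had 10.3% and 51.1%. Over all regions tested the shares were 30.6% and 31.2%, 28.4% and 29.8%, and 22.6% and 24.7% in the same order.

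Fhl2, an SRF target that encodes a LIM domain coactivator, had a pair of selected regions. The one 5.39 kb from its start (chr1:43168631-43170082) had 2388, 2374 and 2244 for PTC1, 1051, 890 and 891 for PTC2, 1336, 1178 and 1295 for LD, and 1078, 1026 and 1020 for WT. PTC1 was apart above all others, with a log2 change of 1.16 (limma adjusted p = 6.71e-15), against a neighbouring median of 0.22. The one at 0.25 kb was higher in PTC1 and PTC2, by 0.73 and 0.65. Inside Itga5, the alpha subunit of the fibronectin receptor (chr15:103358400-103359436), counts were 1490, 1480 and 1585 for PTC1, 1054, 1053 and 1048 for PTC2, 841, 768 and 850 for LD, and 1606, 1633 and 1667 for WT. There PTC2 and LD fell by 0.64 and 1.00 on the log2 scale (limma adjusted p = 4.2e-10 and 6.65e-14), while neighbours had medians of 0.39 and -0.21.

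Near Fos, a gene of an AP-1 subunit (chr12:85485720-85487064), the log2 change was -0.37 in PTC1, 0.19 in PTC2 and -0.19 in LD, and its neighbours had medians of -0.30 in PTC1 and 0.25 in PTC2. The regions 9.23 and 9.29 kb from Ankrd1, a YAP target, were both lower in PTC1, by 0.46 and 0.39. The one near Ccn2, another YAP target (chr10:24588959-24589957), was higher in PTC2 by 0.32 (limma adjusted p = 0.00032). Near Col1a1, the gene of a type I collagen chain (chr11:94927641-94929354), changes of 0.14, 0.11 and 0.08 did not pass the test (limma adjusted p = 0.054, 0.161 and 0.288).

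At the other end of the range, the region with the smallest difference between group means lay on chromosome 17, 388 kb from Rgmb (chr17:16218463-16219955). Counts there were 1038, 1155 and 1035 for PTC1, 1129, 1100 and 1022 for PTC2, 1115, 1106 and 1092 for LD, and 1030, 1117 and 1085 for WT, and all lines overlapped. A region inside Disp1 (chr1:183113257-183114354), which encodes a protein that releases Hedgehog ligands, was similarly level, with 1235, 1241 and 1213 for PTC1, 1176, 1205 and 1187 for PTC2, 1255, 1241 and 1205 for LD, and 1268, 1119 and 1182 for WT. At the threshold, the 5 regions just inside it had means of 1000 to 1001 and the 5 just outside 998.4 to 999.

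Selected regions came singly and in groups. In 1347 of them (42.6%) no other lay within 100 kb, while 31 groups of 4 or more with gaps of at most 25 kb held 136 regions. The group with the most, 6 regions over 21.1 kb on chromosome 6 nearest to Plekhg6 (chr6:125413144-125434255), summed to 10082 to 10351 in PTC1, 11693 to 12277 in PTC2, 9058 to 9222 in LD and 10673 to 10734 in WT.

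Start regions that the table lists for the gene nearest to a called region were counted by direction, beside the shares of equally strong listed regions. These sets are unlike, because the start regions could have any level. No excess or match can be read from the pairs of shares. Of 407 start regions nearest to regions higher in PTC1, 234 were called higher and 48 lower, and of 723 nearest to regions lower in PTC1, 371 were called lower and 107 higher, where equally strong listed regions had 30.6% higher and 33.5% lower. For PTC2, 321 of 521 nearest to higher regions were called higher and 33 lower, while of 593 nearest to lower regions 142 were lower and 150 higher, beside 39% higher and 14.6% lower. For LD, 60 of 204 nearest to higher regions were called higher and 33 lower, and 355 of 801 nearest to lower regions were called lower and 88 higher. Those last counts stand beside 40% lower and 8.42% higher among equally strong listed regions in LD. Neighbouring log2 changes had medians of 0.27 and -0.17 for regions called higher and lower in PTC1. For PTC2 they were 0.16 and -0.05, and for LD 0.17 and -0.03. The part of such shared shifts in these counts was not tested.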

How the data were processed

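The deposited table gives a score per library for each region. Judged from the values, the authors scaled read counts per library and rounded them, so the reads behind a value are not given. The table also holds, where a gene is listed, the authors' distance and the fraction of the region in the gene body. Build mm10 and the tools STAR 2.7.10a, Trimmomatic 0.39, DESeq2 1.30.1 and Picard 2.25.5 are listed, without their roles, in the submitters' processing notes. How peaks were called, whether cuts were shifted, and from which base positions count is not given in the sources used here.

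Scores were transformed to log2(value + 1). A model with a mean for each of the 4 groups was fitted to the 12 libraries in limma 3.58.1 (R 4.3.3), with a variance trend in the empirical Bayes step and Benjamini-Hochberg adjustment over the 81985 regions whose mean reached 5. The fit was run on simulated data in which changes were placed only in a few regions of PTC1. Those data held no shifts with level or along chromosomes, so that run does not measure the effect of scaling. Tables were made in Python 3.11.15. Gene positions came from RefSeq GRCm38.p6, the assembly of mm10: over 11937 genes, the table's starts and RefSeq's differed by a median of 9 bp, and 91.6% lay within 2000 bp. Regions were named by position: the 10 strongest, the 5 largest rises and falls per comparison (3 for PTC1 against PTC2) without overlap between the groups and 1 per 100 kb, the 10 most level, those at the threshold, those within 1 Mb of actin genes, and up to 4 per gene list, nearest first. Prr5 and the group of regions named fall outside that rule and were chosen after their values were seen. Motifs in region windows were planned only with a genome and were not searched, so RefSeq promoters were used. Members and lists were chosen with earlier results of these data known.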

Additional observations from a re-analysis of the deposited data

How the results depend on the processing

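Counts of selected regions depended on how libraries were scaled. The share higher in LD, 10.3%, was 5.79% at equal medians, 25.1% after loess, 6.32% with local centring, 6.7% without the variance trend, and 16.1% or 6.71% with the minimum mean at 500 or 2000. After loess 32% were lower in LD. The stop lines were lower than LD in 16.5% at equal medians and 42% after loess, and PTC1 was higher than PTC2 in 17.1% at equal medians. The following were computed after seeing the data. At 2-fold or more, LD had 10 rises with chromosome centring and 2 with local centring, and 21, 21 and 13 falls after loess, chromosome and local centring. The stop lines were above LD in 103, 43, 33 and 37 regions at equal medians, after loess, and with chromosome and local centring. All PTC2 libraries stood above the other 9 in 29.2% at equal medians and 9.58% after loess, and below in 4.84% and 15.6%. LD stood above in 1.77% and 14.2%, and after loess below in 14.9%, with WT below in 5.18%. The cause of these shifts was not tested.

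Of 2100 values recomputed for 100 named results, 2012 kept direction and side of the threshold, 73 lost the call and 15 turned sign. All 15 came with chromosome or local centring, which take off the median change of the surroundings. With local centring these were Sox2, PTC1 against PTC2 (-1.326), and against WT Bahcc1 in PTC2 (0.154 and 0.222 for its regions), Fmn1 in PTC2 (0.171), Dok1 in PTC1 (-0.182) and PTC2 (-0.084), Ier3 in PTC1 (-0.090), Fos in PTC2 (-0.065), and Myh9 (-0.221), Ptk2 (-0.233) and Itgb1 (-0.073) in PTC1. With chromosome centring they were Ier3 (-0.123), Myh9 (-0.052), Ptk2 (-0.258) and Itgb1 (-0.057) in PTC1.

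Leaving out 1 library at a time changed no count by more than 1.5 times: 8.31% to 10.9% were higher in LD and 45.2% to 52.2% lower. Over all regions tested, deviations of libraries with the same number correlated only weakly (r of -0.00443 to 0.0447, 0 of 18 pairs above 0.1). Libraries with different numbers had r of -0.0396 to 0.0222. Still, 12 of 12 libraries were closest to their own number, a hint from the data only. The selected regions were not checked by themselves. With the number as a replicate block, PTC1 had 25% higher and 45.9% lower, PTC2 had 30.9% and 34.6%, and LD had 10.9% and 51.8%. A motif search in shorter windows was not run without a genome. Reads per value are not given, which limits what can be said of precision to the spread between libraries.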
